A study of Mus musculus with 2 samples.

Results

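The genes described here are 10 members of the reactive astrocyte programme, Gfap, Vim, Serpina3n, Lcn2, Cd44, Steap4, Osmr, Cp, S1pr3 and Timp1. They were taken by symbol from the 19059 genes of the deposited single-cell counts, and all 10 were present in both libraries. The counts come from hippocampus of aged C57BL/6 mice, with 1 library of tissue pooled from 4 control mice on standard chow and 1 of tissue pooled from 4 mice fed tomatidine, a steroidal alkaloid derived from tomatoes. Treatment started at an age of 21 months and lasted 3 months, with tomatidine at 0.05% of the chow. Mice of both sexes were used in the study, and the labels do not give the sex of the pooled animals. Fixed cells from frozen tissue were hybridized with gene probes, and unique molecular identifiers (UMIs), tags that mark single probe molecules, were counted per gene and cell. With 1 library per group there was no replicate check and no test between groups, so animals, handling and diet cannot be told apart. The 95% intervals given below cover counting error only. Those of shares of cells treat the cells of a library as independent draws. Neither kind covers differences between animals.

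After filtering, 15115 control and 14503 tomatidine cells remained, with medians of 7077 and 7408 UMIs. The libraries held 279525565 and 259059908 UMIs in all, and 292 cell barcodes occurred in both. Clusters were named by markers that did not include the 10 genes, and the 10 genes were left out of the clustering. Astrocyte-like cells numbered 1824 in the control and 2126 in the tomatidine library, with medians of 3827 and 4387 UMIs. They came from 3 clusters, in each of which all 18 astrocyte markers were raised. Cluster 20, led by Tnnt1 and Synpo2, had 15 raised astrocyte markers but was not named. In it 11 markers of another class were raised as well, and 0 of its 10 leading genes were astrocyte markers. Its leading genes Tnnt1, Synpo2, Prkcd and Grid2ip were also leading genes of cluster 22, a subcortical neuron-like cluster. Cluster 20 held 357 control and 172 tomatidine cells, equal to 19.6% and 8.09% of the size of the astrocyte-like class.

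Astrocytes respond to injury, infection, neurodegeneration and ageing by changing their shape and their gene expression, a state called reactivity. Gfap and Vim encode intermediate filament proteins that build the cytoskeleton of reactive astrocytes. Cytokines of the interleukin-6 family signal through receptors such as the oncostatin M receptor (Osmr) and the transcription factor STAT3, which is a known regulator of Gfap. Secreted products of reactive astrocytes include the protease inhibitor Serpina3n, the iron-carrier-binding protein lipocalin 2 (Lcn2) and the metalloproteinase inhibitor Timp1. Many of these genes are also used by vascular, meningeal and oligodendrocyte lineage cells, and for this reason their levels were first compared across cell classes.

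The promoter stretches of Gfap, Steap4 and Serpina3n are shown because they differ in whether they hold the palindromic STAT motif TTCNNNGAA, which reads the same on both strands. They are RefSeq sequences of build GRCm38.p6, each with 250 bases before the annotated start and 20 after it, written 5′ to 3′ on the gene's strand. Gfap is on the minus strand at chr11:102897181-102897450, Steap4 on the plus strand at chr5:7960222-7960491 and Serpina3n on the plus strand at chr12:104406458-104406727. Capitals mark the motif.
Gfap: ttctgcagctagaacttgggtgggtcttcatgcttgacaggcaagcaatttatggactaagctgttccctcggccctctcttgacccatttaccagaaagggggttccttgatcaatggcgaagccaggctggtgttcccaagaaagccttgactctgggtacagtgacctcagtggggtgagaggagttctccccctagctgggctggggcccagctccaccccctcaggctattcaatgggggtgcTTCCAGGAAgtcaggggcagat
Steap4: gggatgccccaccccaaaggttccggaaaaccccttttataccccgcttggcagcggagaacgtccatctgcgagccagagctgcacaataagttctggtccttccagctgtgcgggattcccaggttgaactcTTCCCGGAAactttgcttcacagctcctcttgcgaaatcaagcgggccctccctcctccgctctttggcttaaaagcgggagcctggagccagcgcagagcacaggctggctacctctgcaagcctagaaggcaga
Serpina3n: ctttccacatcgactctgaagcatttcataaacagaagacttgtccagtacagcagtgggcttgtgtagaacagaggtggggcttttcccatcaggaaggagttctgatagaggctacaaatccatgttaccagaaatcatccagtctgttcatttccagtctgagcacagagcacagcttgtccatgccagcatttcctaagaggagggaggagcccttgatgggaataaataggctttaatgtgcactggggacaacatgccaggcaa
The match in Gfap began at base 249 of the stretch and spanned the annotated start, and the match in Steap4 began at base 135. All 10 genes had a RefSeq promoter, with 11 promoters in all since Cp had 2, and the motif occurred in 2 of these 11 windows of 300 bases. It occurred in 2726 of all 32851 promoters of that length, or 8.3%. The AP-1 motif TGANTCA, searched on both strands, was found in windows of Cp and Osmr and in 7.81% of all promoters. A match is a description of the letters and not of binding.

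Among the 9 classes with at least 50 cells in each library, Gfap was highest in astrocyte-like cells, while each of the other 9 genes was higher, or as high within counting error, in another class. Gfap (ENSMUSG00000020932, GENCODE coordinates on mm10, chromosome 11, 102887336 to 102900912, minus strand) encodes glial fibrillary acidic protein. It had 29869 UMIs in control and 37159 in tomatidine astrocyte-like cells, or 2607 and 2676 CPM, that is, counts per 1000000 UMIs of the class. Endothelial-like cells followed with 586 and 503 CPM and microglia-like cells with 389 and 407 CPM. Below these came oligodendrocyte precursor-like cells with 296 and 287 CPM, fibroblast-like cells with 242 and 311 CPM and oligodendrocyte-like cells with 207 and 188 CPM. Astrocyte-like cells therefore held 59.6% and 67.5% of the Gfap UMIs of all kept cells. Excitatory neuron-like cells, which should lack the gene and so gauge free RNA, had a Gfap UMI in 47.4% and 45.1% of cells at medians of 18506 and 16483 UMIs. After thinning each cell to 1500 UMIs the share was 10.2% and 9.43% in these neurons against 66.7% and 57.4% in astrocyte-like cells.

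Vim (ENSMUSG00000026728, chromosome 2, 13573927 to 13582826, plus strand) encodes vimentin, the other filament protein of the set. Its level was 1165 CPM in control and 1529 CPM in tomatidine endothelial-like cells, above the 514 and 392 CPM of astrocyte-like cells. The endothelial-like cluster had 14 raised endothelial markers, and 14 markers of another class were raised in it as well. Fibroblast-like cells had 521 and 562 CPM, which overlapped astrocyte-like cells within counting error in the control library (484 to 559 against 501 to 527 CPM) but not in the tomatidine library. Ependymal-like cells, a class of 35 and 15 cells, had 3228 and 3297 CPM. Vim UMIs thus divided mainly between astrocyte-like cells, with 36.9% and 33.7%, and endothelial-like cells, with 25.5% and 36.3%.

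Of the secreted products, Serpina3n (ENSMUSG00000021091, chromosome 12, 104406729 to 104414329, plus strand) was highest in oligodendrocyte-like cells. These had 641 and 556 CPM, oligodendrocyte precursor-like cells 317 and 179 CPM, and astrocyte-like cells 229 and 188 CPM in the control and tomatidine libraries. Oligodendrocyte-like cells held 46.4% and 42.3% of all Serpina3n UMIs and astrocyte-like cells 9.71% and 13.2%. Excitatory neuron-like cells also carried the gene, at 81.9 and 64.9 CPM. Their thinned share of cells with a UMI, 10.8% and 8.88%, was close to the 12% and 11.3% of astrocyte-like cells, although the astrocyte-like CPM was higher. The Serpina3 locus holds near-identical copies, and to what extent Serpina3n probes bind their transcripts is not known here. Of 8 listed copies 7 were in the files, and they summed to 0.785 and 1.80 CPM in astrocyte-like cells.

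Lcn2 (ENSMUSG00000026822, chromosome 2, 32384633 to 32388252, minus strand) was found in few cells. Endothelial-like cells had 70.2 and 35.2 CPM and astrocyte-like cells 17.4 and 13.8 CPM. In astrocyte-like cells its 199 control UMIs lay in 17 cells and its 191 tomatidine UMIs in 35 cells. Timp1 (ENSMUSG00000001131, chromosome X, 20870166 to 20874735, plus strand) was highest in fibroblast-like cells, at 14.5 and 31.6 CPM, with 7.68 and 9.72 CPM in astrocyte-like cells. Astrocyte-like cells, the larger class, nevertheless held 46.3% and 48.6% of Timp1 UMIs. Cp (ENSMUSG00000003617, chromosome 3, 19957054 to 20009145, plus strand) encodes ceruloplasmin, a copper-binding ferroxidase. It was mainly a gene of other classes here, with 620 and 573 CPM in fibroblast-like, 209 and 236 CPM in endothelial-like and 119 and 130 CPM in oligodendrocyte precursor-like cells, against 5.93 and 9.0 CPM in astrocyte-like cells.

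Of the surface proteins, Cd44 (ENSMUSG00000005087, chromosome 2, 102811141 to 102901665, minus strand) encodes a receptor for hyaluronan. Astrocyte-like cells had 24.4 and 30.6 CPM, and microglia-like cells had 26.7 and 32.1 CPM with overlapping intervals. The unnamed cluster 29, led by Sec14l3 and Fermt1, had 134 and 133 CPM and held 21.6% and 36.6% of all Cd44 UMIs. Osmr (ENSMUSG00000022146, chromosome 15, 6813577 to 6874969, minus strand) had 123 and 125 CPM in endothelial-like, 78.2 and 46.8 CPM in fibroblast-like and 36.8 and 31.2 CPM in astrocyte-like cells. S1pr3 (ENSMUSG00000067586, chromosome 13, 51408639 to 51422797, plus strand), a receptor for sphingosine-1-phosphate, followed the same order with 99.1 and 103, then 69.9 and 37.4, then 24.9 and 22.8 CPM. Mural-like cells, of which there were 38 and 39, had 683 and 573 CPM of S1pr3. Steap4 (ENSMUSG00000012428, chromosome 5, 7960457 to 7982213, plus strand), which encodes a metalloreductase, had 2 and 5 UMIs in all astrocyte-like cells, and 37 and 16 UMIs in endothelial-like cells. At this depth no difference in astrocyte-like Steap4 was detectable.

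**Figure D1:**
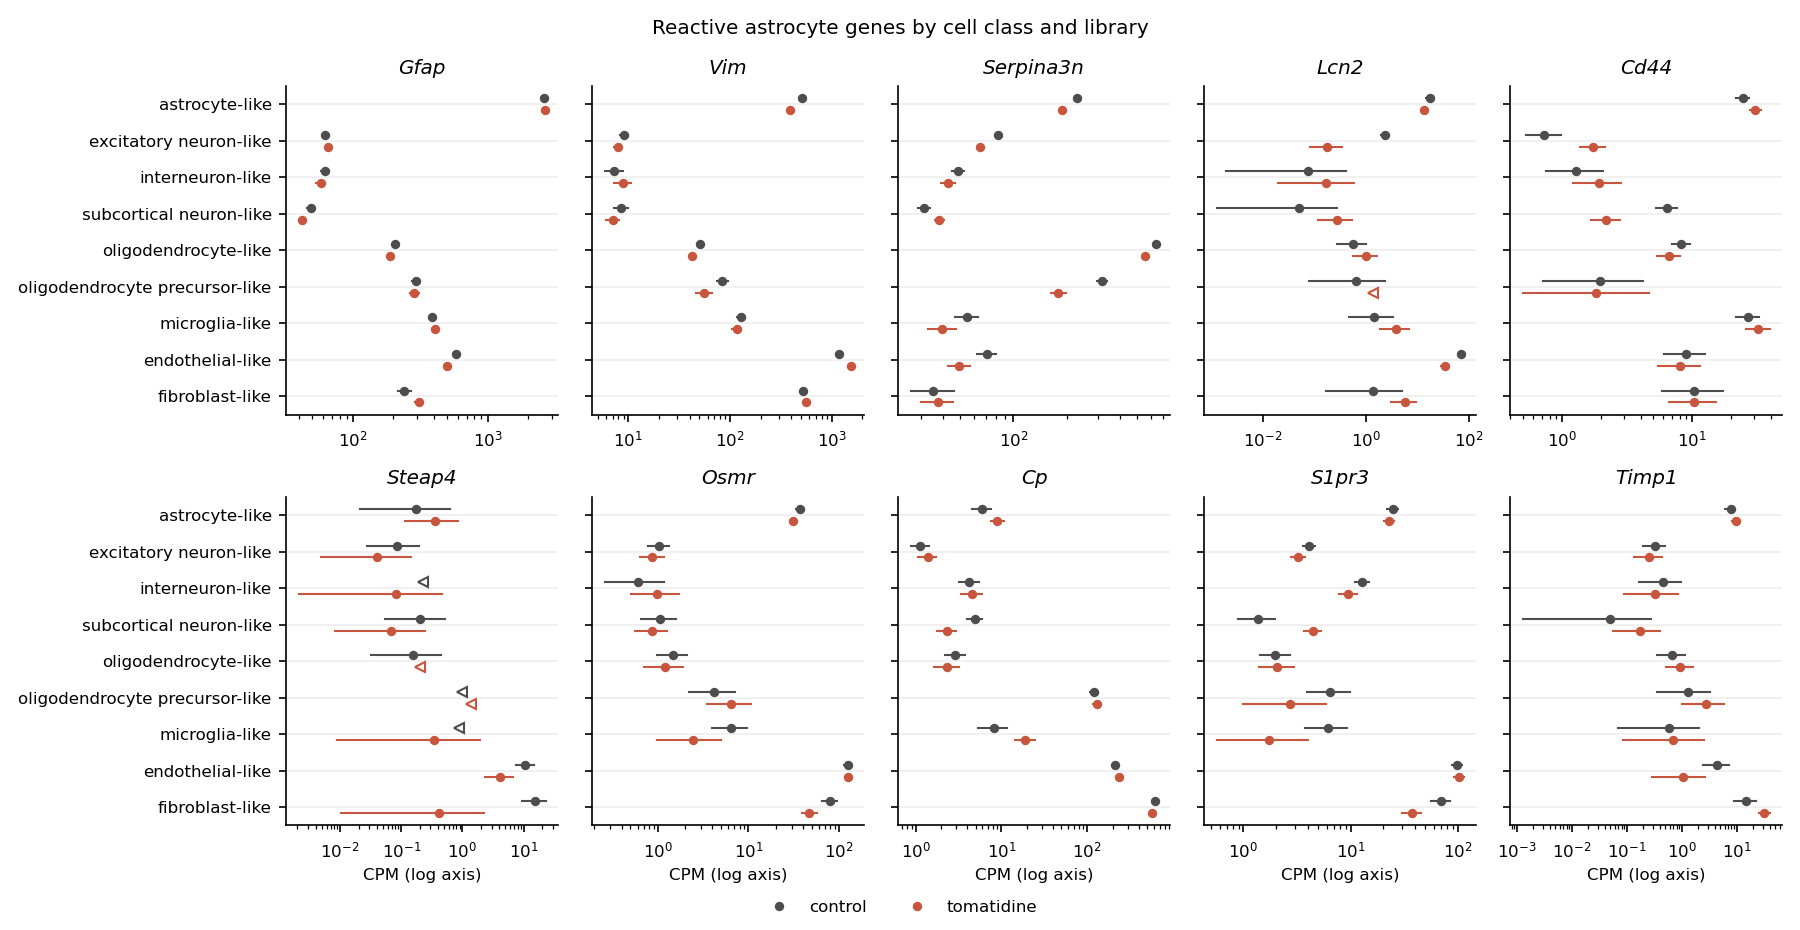
Level of each of the 10 genes in 9 cell classes of the control and tomatidine libraries, in CPM of the class on a log axis; points are sums over cells, lines are 95% Poisson intervals for counting error, and open triangles mark 0 UMIs, drawn at the level that 3 counts would give. Gfap is highest in astrocyte-like cells, Vim in endothelial-like and Serpina3n in oligodendrocyte-like cells.

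Within astrocyte-like cells the 10 genes were unevenly spread. Gfap averaged 16.4 UMIs per cell in the control and 17.5 in the tomatidine library, but the medians were 3 and 2 UMIs, and the highest cells had 970 and 1117 UMIs. Those cells were deep, with 22357 and 48557 UMIs of all genes. The highest tomatidine cells for Vim, Serpina3n, Cd44 and Timp1 also had a total of 48557 UMIs. In the control library those for Vim, Cd44, Osmr and S1pr3 had 42180. Whether such cells are doublets was not tested. No Gfap UMI was found in 18.7% of control and 25.7% of tomatidine cells. The variance of Gfap UMIs over their mean was 173 and 233, where differences in depth between cells alone would give 22.8 and 22.0.

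The concentration was greater still for the other genes. The 10% of cells with the most Gfap held 71.2% and 77.9% of its UMIs, whereas the deepest 10% of cells held 37.9% and 35.8% of all UMIs. For Vim the corresponding shares were 86.2% and 87.5%, and for Serpina3n 87.7% and 87.2%. The top 1% of cells, 19 in the control and 22 in the tomatidine library, held 83.0% and 93.3% of Timp1 UMIs, 59.7% and 77.9% of S1pr3 UMIs and 26.0% and 30.3% of Gfap UMIs. The same number of deepest cells held 7.78% and 7.88% of all UMIs. For genes with few UMIs a high share in few cells is partly set by their low number.

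**Figure D2:**
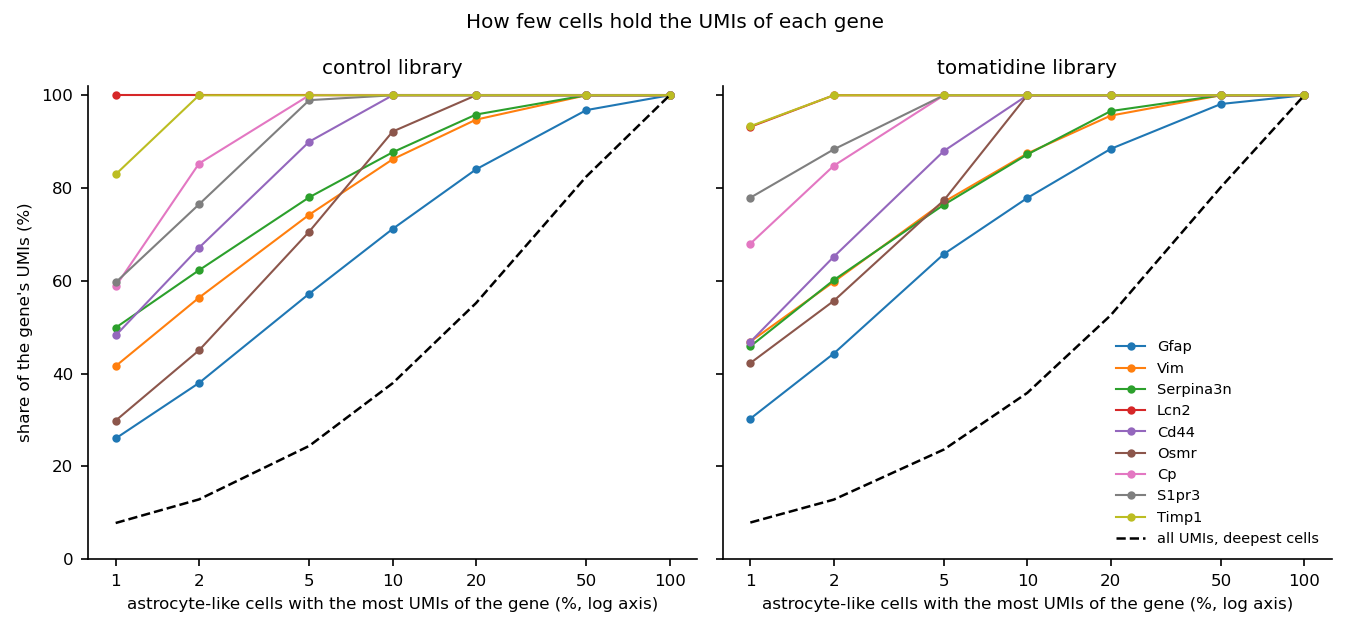
Share of a gene's UMIs, in percent, held by the astrocyte-like cells with the most UMIs of that gene, against the percent of cells on a log axis, for 9 genes in the control and tomatidine libraries; the dashed line is the share of all UMIs held by the deepest cells. Every gene lies above the dashed line, and at 10% of cells Gfap reaches 71.2% and 77.9%.

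Cells rich in Gfap carried more of the other genes. Astrocyte-like cells with at least 3000 UMIs were ranked by Gfap CPM within each library, and the 25% of cells at each end, 276 control and 366 tomatidine cells, were set side by side as a description. Vim was 57.1 CPM in the Gfap-poor and 1539 CPM in the Gfap-rich control cells, a 26.9-fold difference, and 33.2 and 1151 CPM in tomatidine cells, a 34.7-fold difference. Serpina3n was 11.2-fold higher in Gfap-rich control cells, at 57.1 against 638 CPM, and 14-fold higher in tomatidine cells, at 36.1 against 504 CPM. The filament genes and Serpina3n thus lay largely in the same cells of either library.

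The receptors followed the same pattern. Osmr was 10.5-fold and 18.7-fold higher in Gfap-rich cells of the control and tomatidine libraries, S1pr3 30.4-fold and 47.1-fold, and Cd44 8.13-fold and 6.92-fold. The S1pr3 values rested on 5 and 4 UMIs in the Gfap-poor cells. Cp was 4.52-fold and 3.51-fold higher. Lcn2 had 0 UMIs in Gfap-poor and 159 in Gfap-rich control cells, at least 37.8-fold higher when 3 counts are set for the 0. In tomatidine cells it was 17.5-fold higher, on 5 UMIs in the Gfap-poor cells. Timp1 had 1 UMI in the Gfap-poor cells of each library, against 77 and 129 UMIs in the Gfap-rich cells.

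Depth and cluster also differed between these cells. Gfap-rich cells had medians of 8225.5 and 7933 UMIs against 5569.5 and 5466.5 in Gfap-poor cells. Cluster 9, led by Thbs4, made up 52.5% and 54.1% of Gfap-rich and 25% and 24% of Gfap-poor cells. Within cluster 9 alone Vim was 18.6-fold and 20.9-fold higher in Gfap-rich cells, and Cd44 14-fold and 17.7-fold. These Gfap-rich cells of cluster 9 had medians of 13636.5 and 12839.5 UMIs against 6933.5 and 5130 in its Gfap-poor cells. Their oligodendrocyte markers summed to 9602 and 5868 CPM against 18396 and 11029 CPM. The part of depth and oligodendrocyte RNA in these folds was not tested. Thbs4 and Cyp4f15 were both leading genes of cluster 9. At a resolution of 1.5 they led separate clusters. Vim was 1808 and 1849 CPM in the cluster led by Myoc and Thbs4, and 248 and 201 CPM in that led by Cyp4f15. How far the folds within cluster 9 separate such cells was not tested. For other genes the difference within cluster 9 was smaller in the control library, with S1pr3 3.86-fold, Osmr 4.35-fold and Serpina3n 8.37-fold higher. In the tomatidine library Osmr was 19.9-fold and Serpina3n 14.4-fold higher. The Osmr values rested on 21 control and 4 tomatidine UMIs in the Gfap-poor cells of cluster 9. Within cluster 1 Vim was 12.2-fold and 8.72-fold higher, Serpina3n 3.40-fold and 8.75-fold and Osmr 5.54-fold and 7.83-fold, while Cd44 was 1.58-fold higher in the control and 0.450-fold in the tomatidine library. In cluster 1 the Gfap-rich cells were shallower than the Gfap-poor cells and higher in oligodendrocyte markers, in both libraries.

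**Figure D3:**
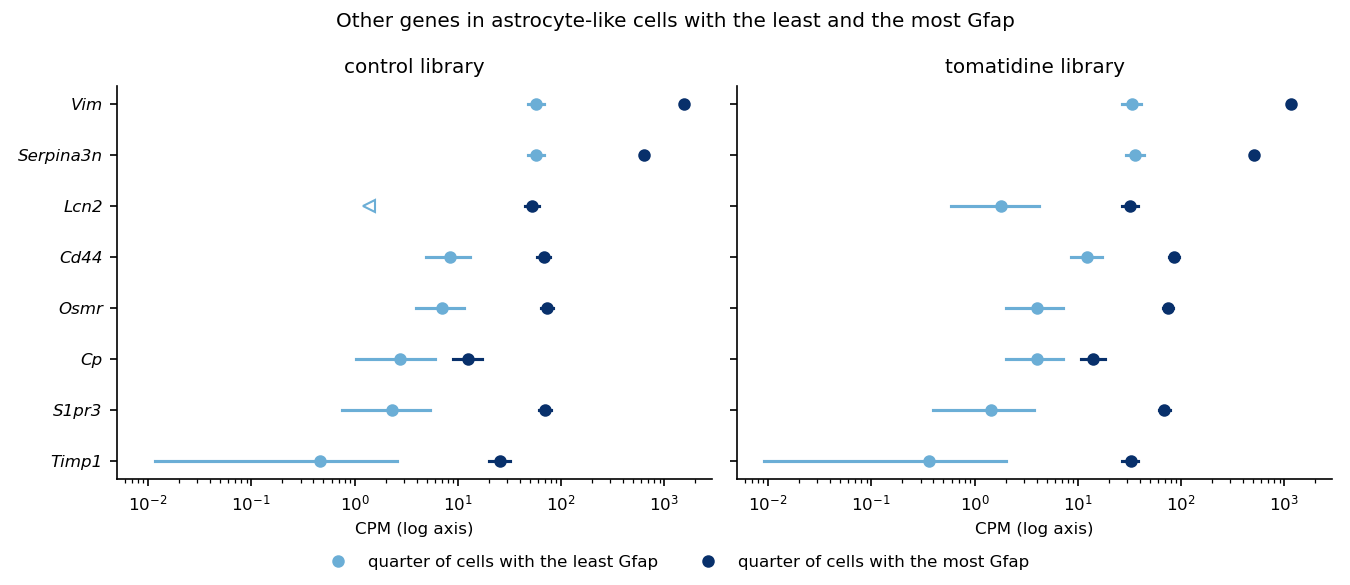
Level of 8 genes in the 25% of astrocyte-like cells with the least and the 25% with the most Gfap, in CPM on a log axis, for the control and tomatidine libraries with 95% Poisson intervals; the open triangle marks 0 UMIs of Lcn2, drawn at the level of 3 counts. All 8 genes are higher in the Gfap-rich cells of both libraries, Vim by 26.9-fold and 34.7-fold.

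The genes whose pattern was most like that of Gfap were ranked by Pearson correlation among 8459 genes, as a description. Over 9 classes in 2 libraries, 18 points that share libraries and depth, these were the metallothionein gene Mt1 with r = 0.99 and Acsbg1, Fam107a, Ccdc190 and Mlc1, each with r = 0.98. Acsbg1 and Mlc1 were among the markers used to name astrocyte-like cells. For Serpina3n they were Shisa4 with 0.96, Ppp1r16b with 0.95, Ralgds and Phlpp1 with 0.94 and Fam102a with 0.92.

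Over single astrocyte-like cells the same ranking was made within each library, where counts per cell were sparse. Of these genes, Vim was most like Gfap, with r = 0.49 over 1824 control and 0.51 over 2126 tomatidine cells, followed by the complement gene C4b, Cpe, Igfbp5 and Ahnak, with mean r of 0.39, 0.38, 0.38 and 0.34. Vim was also most like Serpina3n, with 0.37 and 0.38, followed by the protease inhibitor A2m, C4b, Ahnak and S1pr3, with mean r of 0.36, 0.33, 0.32 and 0.30. Cells of a library share its depth and free RNA.

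The comparison of the libraries asked whether reactive astrocyte genes were lower or higher in astrocyte-like cells after tomatidine. The mix of cells differed between the libraries. Cluster 10, led by Pou4f2 and Barhl1, had 197 control and 684 tomatidine cells, and cluster 15, led by Gata3 and Sox14, 179 and 516. Choroid plexus-like cells numbered 353 and 34, and cluster 34, led by Adora2a, 85 and 2. Differences in the tissue taken and in diet cannot be told apart here. Summed over the 10 genes, astrocyte-like cells had 3467 CPM in the control and 3374 CPM in the tomatidine library, a log2 ratio of tomatidine over control of −0.04 (−0.06 to −0.02). Gfap made up most of this sum. Of the 9 genes with at least 20 UMIs, 3 were higher in the tomatidine library by at least 0.32 on the log2 scale, and 2 were lower by at least as much. Over all 13244 genes with as many UMIs, 7.62% were that much higher and 7.53% that much lower, with a median log2 ratio of 0.01 against −0.12 for the members. The 5 genes therefore went in different directions, and the other 4 stayed within 0.32.

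Among filament genes, Gfap had 2607 and 2676 CPM, a log2 ratio of 0.04 (0.02 to 0.06). Vim was lower, at 514 against 392 CPM, a log2 ratio of −0.39 (−0.44 to −0.34). The share of cells with a Gfap UMI was nevertheless lower in the tomatidine library, at 81.3% against 74.3% as counted and 66.7% against 57.4% after thinning, a difference of −9.32 points (−12.5 to −6.10). No order is read from that share, since the CPM did not follow it. The thinned share for Vim was 20.5% against 16.8%, a difference of −3.76 points (−6.37 to −1.18), and 35.7% against 31.3% as counted. For the other 8 genes the interval of the thinned difference included 0. These intervals take cells as the unit, and cells of 1 pooled library are not replicates.

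Among secreted products, Serpina3n was 229 against 188 CPM, a log2 ratio of −0.29 (−0.37 to −0.21), within 0.32 of no difference. Lcn2, with 17.4 and 13.8 CPM, had a ratio of −0.34 (−0.63 to −0.04), and without the cell with the most Lcn2 in each library, which held 47 of 199 and 29 of 191 UMIs, the ratio was −0.19 (−0.52 to 0.14). Lcn2 was therefore lower in UMIs but found in more cells of the tomatidine library, and its difference rested on few cells. Timp1, at 7.68 and 9.72 CPM, had a ratio of 0.34 (−0.06 to 0.74) and was found in 34 control and 31 tomatidine cells. Of its 135 tomatidine UMIs 39 lay in 1 cell, and without the highest cell in each library the ratio was 0.12 (−0.33 to 0.58), within 0.32. Cp, at 5.93 and 9.0 CPM, had the highest ratio of the 9 genes, 0.60 (0.16 to 1.05).

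Of the receptors, Cd44 was 24.4 against 30.6 CPM, a log2 ratio of 0.32 (0.10 to 0.55). Osmr was 36.8 against 31.2 CPM, a ratio of −0.24 (−0.44 to −0.04), and S1pr3 was 24.9 against 22.8 CPM, a ratio of −0.12 (−0.36 to 0.11). The hyaluronan receptor and the cytokine receptor thus had opposite signs, with Osmr within 0.32 of no difference.

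Summed markers of some other classes also differed between the libraries in astrocyte-like cells, while those of others were level. The 15 oligodendrocyte markers summed to 8224 CPM in control and 6268 CPM in tomatidine astrocyte-like cells, with 13 of them lower by at least 0.32 on the log2 scale, against 67785 and 63113 CPM in oligodendrocyte-like cells. The 15 choroid plexus markers summed to 1507 and 375 CPM, with 14 lower. The 14 interneuron markers summed to 661 and 825 CPM, while the 18 astrocyte markers were level at 32989 and 33147 CPM. Microglial markers stood at 676 and 654 CPM, endothelial markers at 247 and 241 CPM, and the 11 neutrophil or monocyte markers at 9.51 CPM in either library, with Ly6g and Cxcr2 at 0. In the cells below the median of oligodendrocyte marker CPM, the Serpina3n ratio was −0.46 and the Vim ratio −0.20. The part of choroid plexus and interneuron RNA in the results was not tested.

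**Figure D4:**
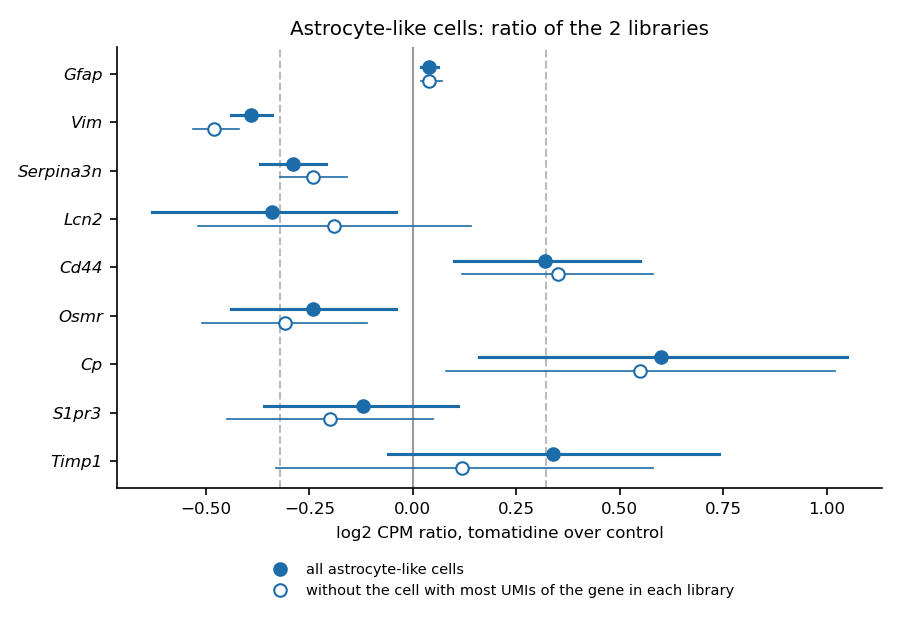
Log2 ratio of tomatidine over control CPM in astrocyte-like cells for the 9 genes with at least 20 UMIs, with 95% intervals for counting error; filled points use all cells, open points leave out the cell with the most UMIs of the gene in each library, and dashed lines mark a log2 ratio of 0.32 in either direction. Vim lies below the lower line in either case, while Lcn2 lies below it and Timp1 above the upper line only with their highest cells included.

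The direction for Gfap depended on the cluster of astrocyte-like cells. Cluster 1, the largest, led by Acsbg1 with 1283 and 1399 cells, had 1614 CPM in the control and 1169 CPM in the tomatidine library, a log2 ratio of −0.47 (−0.51 to −0.42). Cluster 9, with 433 and 522 cells, had 3994 and 5430 CPM, a ratio of 0.44 (0.42 to 0.47). Cluster 26, led by Agt with 108 and 205 cells, had 1306 and 425 CPM, a ratio of −1.62 (−1.79 to −1.45). A Gfap UMI was found in 62.0% and 52.7% of its cells. In each library 8 of its cells were among the Gfap-rich cells described above. How far few cells carry the ratio of cluster 26 was not tested. The near equality over the whole class thus combined a lower level in clusters 1 and 26 with a higher level in cluster 9, and these differences between clusters were not tested.

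Ratios of the other genes also varied by cluster. Vim was −0.81, −0.11 and −1.70 in clusters 1, 9 and 26. Cd44 was −0.17 (−0.68 to 0.35) in cluster 1 and 0.64 (0.39 to 0.89) in cluster 9. Timp1 was −0.95 (−2.45 to 0.46) in cluster 1, on 12 and 8 UMIs, and 0.77 (0.33 to 1.21) in cluster 9. In cluster 1 the intervals of both genes thus included 0. Osmr was −0.85 (−1.33 to −0.39) in cluster 1 and 0.08 (−0.14 to 0.31) in cluster 9, and S1pr3 was −0.88 (−1.50 to −0.27) and 0.22 (−0.04 to 0.48). Serpina3n was 0.01 in cluster 1, −0.06 in cluster 9 and −1.71 in cluster 26, where it was 633 against 194 CPM. A Serpina3n UMI was found in 39.8% and 33.2% of the cells of cluster 26. Without cluster 26 the Serpina3n ratio over the class was −0.15.

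**Figure D5:**
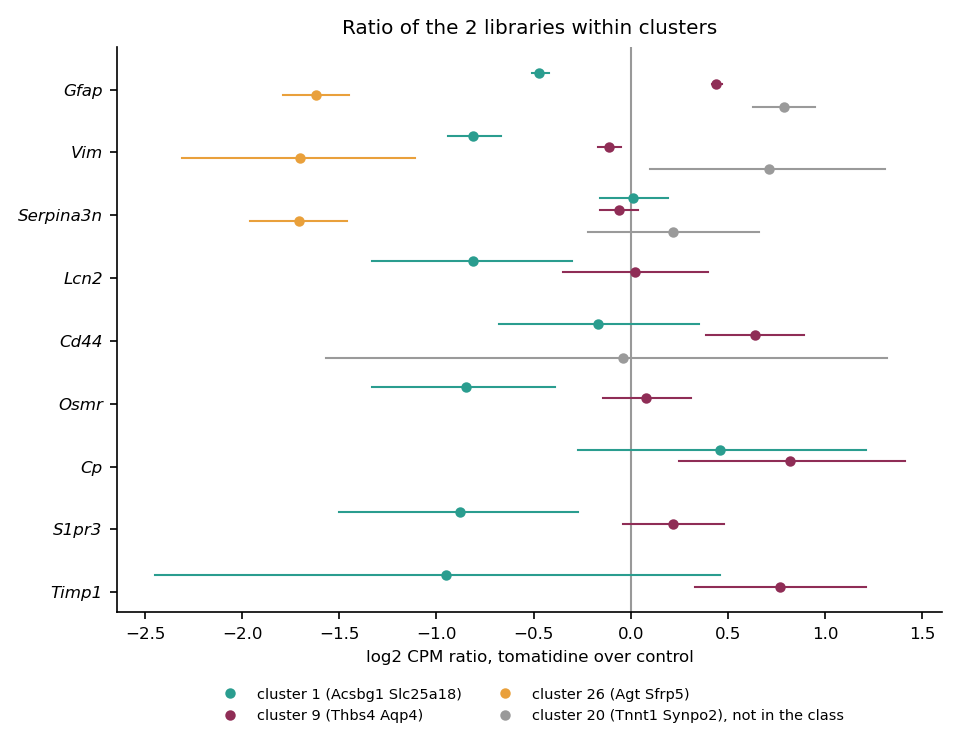
Log2 ratio of tomatidine over control CPM by cluster for genes with at least 20 UMIs in the cluster, with 95% intervals for counting error; clusters 1, 9 and 26 form the astrocyte-like class and cluster 20 is the unnamed cluster outside it. Gfap lies at −0.47, 0.44 and −1.62 in clusters 1, 9 and 26 and at 0.79 in cluster 20.

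At a finer clustering resolution of 1.5, a cluster led by Myoc, Thbs4 and Cxcl5 separated, with 154 control and 141 tomatidine cells. It held Gfap at 6539 and 10470 CPM, a log2 ratio of 0.68. Cd44 was 83.8 and 147 CPM, a ratio of 0.81, and Timp1 30.9 and 56.9 CPM, a ratio of 0.88. Vim, at 1808 and 1849 CPM, and Serpina3n, at 678 and 688 CPM, were level in the same cells. The cells of this cluster were deep, with medians of 12094 and 12690 UMIs. All 18 astrocyte markers were raised in it, but 11 markers of another class were raised as well, and 1 of its 10 leading genes was an astrocyte marker. It was the astrocyte-like cluster with the highest Gfap ratio at that resolution, and in the other 5 the Gfap ratio was −1.62, −0.84, −0.17, −0.17 and 0.15.

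The ratio for Gfap also differed with the depth of the cells. In astrocyte-like cells of 500 to 1500 UMIs the Gfap ratio was −0.55 (−0.77 to −0.34), and in those of at least 12000 UMIs it was 0.18 (0.15 to 0.21). Vim was negative in all 5 bands of depth, from −1.24 to −0.27. Serpina3n was 0.60 (0.13 to 1.08) between 1500 and 3000 UMIs and negative in the other 4 bands.

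In other classes, several of the genes also differed between the libraries. Vim was higher in tomatidine endothelial-like cells, with a log2 ratio of 0.39 (0.33 to 0.45), and lower in oligodendrocyte precursor-like cells, at 83.9 against 55.4 CPM, a ratio of −0.60. Serpina3n was lower in oligodendrocyte-like cells, with a ratio of −0.21 (−0.25 to −0.17), and in oligodendrocyte precursor-like cells, with −0.82. In subcortical neuron-like cells Serpina3n was 31.5 and 38.2 CPM, a ratio of 0.28. There 202 of 628 control UMIs lay in 1 cell of cluster 10, and without the highest cell of each library, a choice made after seeing the data, the ratio over the class was 0.80 (0.63 to 0.96). With all cells, the ratios within its clusters 10, 22 and 31 were −0.53, −0.01 and −0.73. Without those cells, which both lay in cluster 10, that cluster's ratio was 0.41 (0.19 to 0.63), so its negative sign rested on 1 control cell.

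Less abundant genes differed as well, several of them on few UMIs or cells. Lcn2 in endothelial-like cells had a ratio of −1.0, and −0.60 (−0.96 to −0.24) without the highest cell in each library, since 88 of 245 control UMIs lay in 1 cell. In excitatory neuron-like cells Lcn2 had 141 UMIs in 9 control cells and 9 UMIs in 8 tomatidine cells, with 72 control UMIs in 1 cell. Osmr and S1pr3 in fibroblast-like cells had ratios of −0.74 and −0.90. Timp1 there was 1.12, and 0.86 (−0.04 to 1.84) without the highest cells, while Steap4 had 22 control UMIs and 1 tomatidine UMI.

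Other reactive and signalling genes in astrocyte-like cells were counted by the same limit of 0.32 on the log2 scale. Over all genes 7.62% were that much higher and 7.53% that much lower. Of 3 further pan-reactive genes, 0 were higher and 1 lower, the heat shock gene Hspb1 at 4.10 against 2.66 CPM, a log2 ratio of −0.62 (−1.28 to 0.03), while the chemokine gene Cxcl10 was 0.09 and Aspg 0.07. Of 14 genes linked to neuroinflammation with at least 20 UMIs, 1 was higher and 2 lower, around a median of −0.14. Complement C3 was 15.2 against 21.2 CPM, a ratio of 0.48 (0.20 to 0.76), the class I gene H2-D1 was −0.41, the immunoproteasome gene Psmb8 −0.37 and H2-T23 0.14. Among 13 genes linked to ischemia, 4 passed that limit upward and 5 downward, around a median of −0.08. The counting interval lay above 0 for 2 of the 13 and below 0 for 4, against 13.4% and 11.1% of all genes. The extremes of the 13 were the pentraxin Ptx3 at 1.03 (0.46 to 1.63), Tm4sf1 at 0.63, Emp1 at −0.76 and Cd109 at −0.85.

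Signalling genes were counted against the same background, in which 7.62% of all genes were higher and 7.53% lower. Of 21 genes of the interleukin-6 family and JAK-STAT3 pathway, 2 were higher and 2 lower, around a median of −0.06. The ligands Lif and Clcf1 were 0.41 (0.0 to 0.83) and 0.38 (−0.23 to 1.01), and the feedback inhibitor Socs2 was −0.55 (−1.13 to 0.03). Of 8 inducers of reactivity, 1 was higher, Spp1 at 0.53 (−0.08 to 1.16), and 1 lower, the complement gene C1qc at −0.34 (−0.53 to −0.14). Il1a was 0.31 on 10 control and 15 tomatidine UMIs, Fgf2 was −0.22, and the median was −0.06. Of 8 transcription factors that act at Gfap, 0 were higher and 1 lower, Jun at −0.39 (−0.50 to −0.28), with Fos at 0.29, Nfix at 0.11, Stat3 at −0.23 (−0.35 to −0.10) and a median of −0.06.

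Partners of the members' proteins completed the lists, beside the same 7.62% of all genes higher and 7.53% lower. Of 7 filament partners, 1 was higher, desmin (Des) at 1.31 (−0.23 to 3.12) on 5 and 15 UMIs. Lower were 2, nestin (Nes) at −0.55 (−1.16 to 0.06) and the chaperone Cryab at −0.36. Neurofilament light chain (Nefl) was 0.27, and the median was 0.08. Of 22 partners of surface and secreted members, 1 was higher and 5 lower, with a median of −0.10. The counting interval lay above 0 for 0 of these 22 partners and below 0 for 2. Their extremes above were the hyaluronan synthase Has3 at 0.46, on 9 control and 15 tomatidine UMIs, and the ferroxidase Heph at 0.12. Below were the endocytic receptor Lrp2 at −1.96, on 16 and 5 UMIs, and Steap1 at −1.07, on 19 and 11 UMIs. The intervals of Has3 (−0.83 to 1.83), Heph (−0.12 to 0.35) and Steap1 (−2.28 to 0.08) included 0. The Serpina3 copies had 1 gene with at least 20 UMIs, Serpina3g, with 5 control and 20 tomatidine UMIs, a ratio of 1.72 (0.27 to 3.49).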

How the data were processed

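Tissue of 4 control and 4 tomatidine-treated mice went into 1 library each. The authors mapped the reads to mm10 and deposited matrices of counts, which are the UMIs of each gene in each cell with no normalization. The submitters' processing notes name Cell Ranger 8.0.0, whereas the file header names version 7.1.0. Counts from probes exist only where a gene has probes and are not scaled by length, so levels were not compared between genes.

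The files hold 15912 control and 15185 tomatidine cells. The study describes its cell filter in 2 places, with different limits. The first set was applied: 500 UMIs or more, above 250 genes, complexity (log10 genes over log10 UMIs) above 0.8, and mitochondrial UMIs below 20%. Scrublet in scanpy 1.11.5 called 0 and 2 doublets by its own threshold, so the 2% of cells scoring highest were removed (308 and 295). Integration and clustering used Seurat 5.3.0 (R 4.3.3), resolution 0.8, 30 principal components and 2000 variable genes, and 125 genes (the members and the listed genes that are not markers) were left out. Clusters were named from the markers of 16 classes. The class had to lead among the 10 leading genes and to have the most raised markers, at least 3. Raised meant 2-fold or more above other cells and presence in 10% or more of the cluster's cells. A tie in raised markers was broken by the leading genes. This was so for the endothelial-like cluster, with 14 raised markers of its own class and 14 of another. These conditions were chosen with the clusters in view. The names are rebuilt and not the study's, and where a cluster comes mostly from 1 library, library and cell type cannot be told apart.

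UMIs were summed per class and library and divided by all UMIs of the class (CPM). Sums have exact Poisson, log2 ratios exact conditional binomial and differences of thinned shares Newcombe intervals, all at 95%. Thinned shares are expected shares at 1500 UMIs per cell, and cells below that depth were left out, so that 1596 control and 1924 tomatidine astrocyte-like cells remained. A gene was called with at least 20 UMIs over both libraries and a log2 ratio of 0.32 or more in size. The intervals and the thinning were tested on simulated counts. These held counting error alone, so the test does not cover the spread of the genes between cells seen here. The genes named are all 10 members, the 2 with the highest and the 2 with the lowest ratio of each other list, and the 5 most like Gfap and Serpina3n among genes with at least 500 UMIs in astrocyte-like cells, apart from 1 gene that is not reported here. The members and lists were chosen with earlier results of these data known. Alternatives covered a strict cell filter (also under 6000 genes and under 10% mitochondrial UMIs, close to the second set), doublets, resolution, a gate of at least 5 astrocyte markers, scaling by TMM (edgeR 4.0.16, for the factors alone) and median of ratios, the mean of each cell's CPM, an equal mix of clusters, thinning and the fold. Other software was Python 3.11.15 with numpy 2.4.6, matplotlib 3.10.9, pandas 2.3.3 and scipy 1.17.1.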

Additional observations from a re-analysis of the deposited data

Results flagged for a closer look

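For 5 genes the libraries differed in opposite directions in different cells, each by at least 0.32 on the log2 scale and with a counting interval that excluded 0. None of these differences between cells was tested, as there was 1 library per group. The log2 ratio of tomatidine over control for Gfap was 0.44 in cluster 9 and −1.62 in cluster 26 of the astrocyte-like class. How far few cells carry the cluster 26 value was not tested. Vim was 0.39 in endothelial-like and −0.60 in oligodendrocyte precursor-like cells. Cd44 was 1.2 in excitatory neuron-like cells, on 43 control and 87 tomatidine UMIs, and −1.55 in subcortical neuron-like cells, on 127 and 63 UMIs. Cp was 1.23 in microglia-like cells, on 28 and 55 UMIs, and −1.09 in subcortical neuron-like cells, on 98 and 67 UMIs. S1pr3 was 1.71 in subcortical neuron-like cells, on 27 and 129 UMIs, and −1.82 in microglia-like cells, on 21 and 5 UMIs. Of the 21 control UMIs of S1pr3 in microglia-like cells 13 lay in 1 cell, and without the highest cell of each library the ratio was −0.75 (−2.94 to 1.15). The subcortical neuron-like class was made of clusters whose sizes differed between the libraries, with 197 control and 684 tomatidine cells in cluster 10, 279 and 235 in cluster 22 and 128 and 35 in cluster 31.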

How the results depend on the processing

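Vim, Serpina3n and Osmr kept a negative ratio under all 15 alternative choices of cells or scale, from −0.88 to −0.20, −0.52 to −0.15 and −0.82 to −0.01. These ratios are over the class. Within single clusters Serpina3n was 0.01 (−0.16 to 0.19) in cluster 1 and −0.06 (−0.16 to 0.04) in cluster 9. Osmr was 0.08 (−0.14 to 0.31) in cluster 9, while Vim was negative in clusters 1, 9 and 26. Gfap ranged from −0.55 to 0.31. Of 149 alternative ratios of single genes, 16 changed sign, of which 8 concerned a gene beyond 0.32 on the log2 scale with at least 20 UMIs and are given here. Of the other 8, 4 were of Gfap (to −0.03 at resolution 1.5, −0.29 with the marker gate, −0.14 with the mean of each cell's CPM and −0.55 without cluster 9), 3 of S1pr3 and 1 of Steap4. Lcn2 became 1.02 under the strict cell filter and 0.69 in cells below the median of oligodendrocyte marker CPM. Cd44 became −0.03 under the strict filter and −0.23 without cluster 9. Cp became −0.21 under the marker gate. Timp1 became −0.37 with the mean of each cell's CPM, −0.80 in cells low in oligodendrocyte markers and −1.26 without cluster 9. The cause was not tested.

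The summed ratio of −0.04 became −0.09 with the strict filter, −0.12 at resolution 1.5, −0.35 with the marker gate, −0.19 with the mean of each cell's CPM and 0.07 with the same mix of clusters. With alternatives chosen after seeing the data, it was 0.11 with cluster 20 added, 0.06 in cells low in oligodendrocyte markers, and 0.19, −0.57 and 0.02 without cluster 1, 9 or 26.

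The count of 5 genes called became 3 with the strict filter, at resolution 0.3, with the same mix, with cluster 20 added, without the highest cells and without cluster 1, 8 without cluster 9 and 1 at 1.5-fold. The 3 genes called higher became 1 at resolutions 0.3 and 1.5, with the mean of each cell's CPM, without cluster 9 and at 1.5-fold, and 0 with the marker gate. The 2 called lower became 1 with the strict filter and without the highest cells, 0 with the same mix, with cluster 20 added, without cluster 1 and at 1.5-fold, 4 with the mean of each cell's CPM and in cells low in oligodendrocyte markers, 6 with the gate and 7 without cluster 9. Of 40 alternative differences in share, 38 stayed within the interval of the main difference, which takes cells as the unit. No paired analysis was possible because there was 1 library per group. Depth limits Steap4, Lcn2, Cp and Timp1 most.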

Other observations

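The number of members other than Gfap found per astrocyte-like cell, in cells of at least 3000 UMIs, belongs to no comparison above. In the control library 35.2% of cells had 0 of them and in the tomatidine library 43.0%, at medians of 4802 and 4811.5 UMIs. Exactly 1 was found in 33.9% and 32.2% of cells, and 2 in 17.8% and 12.9%. At least 7 were found in 7 control cells and in 11 tomatidine cells, whose median depths were 21386 and 15688 UMIs. Depth did not increase at every step, since tomatidine cells with 5 members had a median of 17432 UMIs and those with 6 a median of 11837. The part of depth in these counts was not tested.

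The unnamed cluster 20 had higher ratios than the astrocyte-like class for the filament genes, with 0.79 for Gfap and 0.71 for Vim, and 0.22 for Serpina3n. Markers of another class were raised in this cluster as well. The complement gene C4b, which ranked near Gfap and Serpina3n over cells, was 986 CPM in control and 803 CPM in tomatidine astrocyte-like cells, a ratio of −0.30 (−0.33 to −0.26).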
